A study of Mus musculus with 12 samples.

Results

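The integrin and laminin subunits are the genes that encode the chains of cell surface integrins and of laminins. They were taken by name: every gene of the array with a single symbol that starts with Itga, Itgb, Lama, Lamb or Lamc and goes on with a digit or, in the integrin alpha chains, a letter (Itgav with the leukocyte chains). Binding proteins of integrins (Itgb1bp1, Itgb1bp2, Itgb3bp) and Itgbl1 were left out. This gave 37 genes, 27 integrin and 10 laminin chains, of 19938 genes with a single symbol and 35556 transcript clusters in all. The rule uses names and no measured value.

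The lungs came from wild-type C57BL/6J mice aged 8 to 10 weeks, in 4 groups: females in room air, females in hyperoxia, males in room air and males in hyperoxia. Hyperoxia was a fraction of inspired oxygen above 95 percent for 48 h. Each group had 3 Affymetrix Mouse Gene 1.0 ST arrays, and each array carried the pooled lung RNA of 4 mice, so the spread between arrays is that between pools. Values are log2 signals, and every contrast is hyperoxia against room air within a sex unless said otherwise. Changes are differences in log2 signal, so that 1 is a doubling, and SE is the standard error of the change. A gene counted as called when limma gave an adjusted p (Benjamini-Hochberg, over all 35556 clusters) under 0.05 and the fold change was at least 1.4.

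Integrins are receptors made of an alpha and a beta chain that join the matrix outside a cell to the actin skeleton inside it. The alpha chain largely sets the ligand: fibronectin and other proteins with the RGD motif, collagens, laminins, or receptors on other cells. Laminins are trimers of an alpha, a beta and a gamma chain and form the sheet of the basement membrane on which the epithelium and the endothelium of the alveolus rest. The beta 4 chain pairs with alpha 6 in hemidesmosomes, the rivets between epithelial cells and laminin, and the beta 2 chain is confined to leukocytes.

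The array medians ran from 8.12 to 8.20 and the mean log2 signals of the 37 subunits from 7.45 (Itga11) to 12.09 (Itgb1). Means of 32 subunits lay above every array median and those of 4 below every one. None was under a mean of 5, so a filter on dim genes at that level would drop no subunit. Only 740 of 19938 genes lay under it. Markers of alveolar type 2 cells, which define lung, had list means of 12.45 to 13.05 on every array. The mean of 16 squamous epithelium markers ranged from 7.57 to 10.24, and the 3 arrays richest in them were female hyperoxia replicate 1 (10.24) and female room air replicates 1 (10.02) and 3 (9.54). In whole lung RNA, fewer cells of a type and less RNA per cell cannot be told apart.

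Hyperoxia moved the subunits in both directions. Itga5, the alpha chain of the fibronectin receptor, was the only subunit past 2-fold, with fold changes of 2.65 for females and 2.96 for males. Lama5, the alpha chain of the main laminins of the adult alveolus, rose in both sexes, and Itga4, Itga8 and Itgal fell in both. Itga3 and Itgb4, both chains of laminin receptors, passed the 1.4-fold threshold in males. In females 2 subunits were called higher, where 4.75 percent of all genes with a single symbol were, and 3 were called lower, against 3.67 percent. In males 4 were called higher, against 5.32 percent, and 3 lower, against 4.11 percent. Those shares of 37 genes come to 1.76 higher and 1.36 lower for females, with 1.97 higher and 1.52 lower for males. The subunits were not tested as a set. With arrays centred on their medians, the split in females was 4 higher and 2 lower. Over all clusters that centring gave 1460 called higher and 879 lower in females, and the shares above are without it.

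Many more subunits shifted by less than 1.4-fold. At the adjusted p alone, 9 were higher in females (12.1 percent of all genes) and 10 lower (11.4 percent), and 9 were higher in males (13.3 percent) and 9 lower (12.1 percent). The higher ones numbered 9 in both sexes together: Itga2, Itga3, Itga5, Itgav, Itgb1, Itgb4, Itgb6, Lama5 and Lamc1. The lower ones in both sexes were also 9: Itga1, Itga4, Itga8, Itgal, Itgb3, Itgb5, Lama3, Lama4 and Lamb2. Itga9 passed in females. The remaining 18 passed in neither sex. Hyperoxia arrays did not overlap room air arrays for 21 subunits in females and 23 in males, where 37.5 and 40 percent of all genes did so. The median log2 fold change over the 37 was -0.08 for females and -0.04 for males, beside -0.02 and -0.00 over all clusters.

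**Figure D1:**
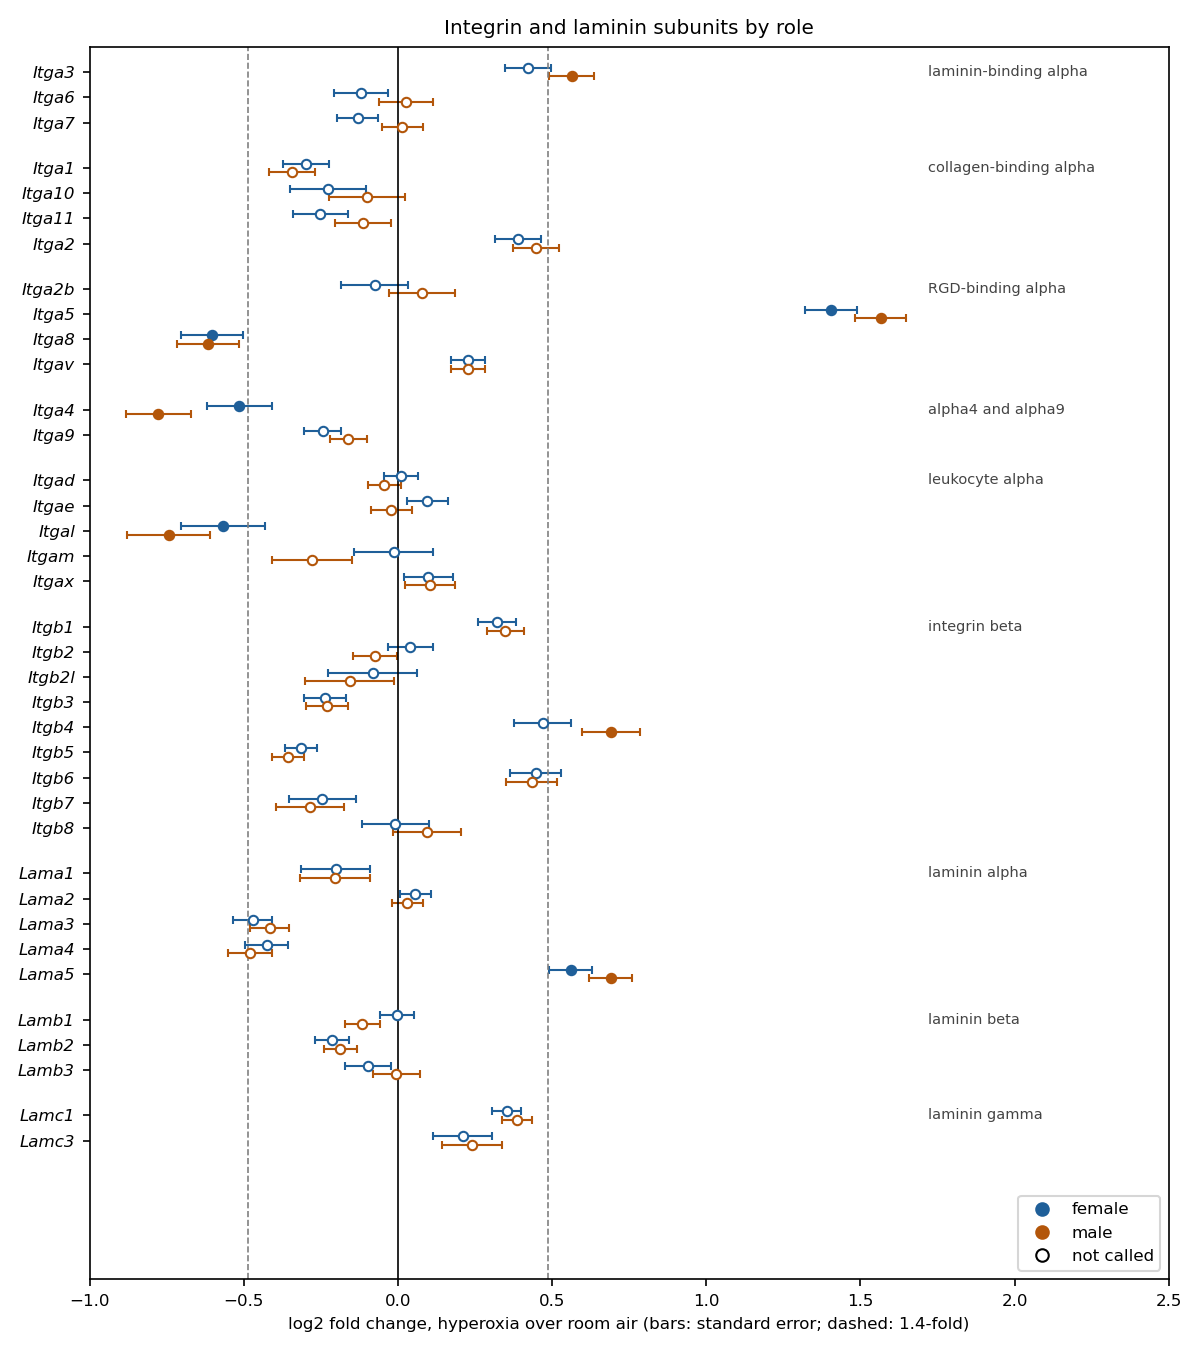
Change in log2 signal from room air to hyperoxia for the 37 subunits, grouped by role, with females in blue and males in orange, standard errors as bars and filled points for called values. Itga5 stands far to the right at 1.40 and 1.57, Itga4, Itga8 and Itgal lie left of the 1.4-fold line in both sexes, and the rest lie within 0.70 of 0.

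Itga5 pairs with Itgb1 alone, as the receptor that binds the RGD site of fibronectin. Its log2 signal was 9.82, 9.82 and 9.96 in female room air and 11.24, 11.27 and 11.30 in female hyperoxia. In males it was 9.70, 10.03 and 9.81 in room air and 11.34, 11.43 and 11.47 in hyperoxia. Every hyperoxia array lay above every room air array by more than 1 log2 unit. The log2 fold change was 1.40 for females (SE 0.08, adjusted p = 3.99e-06 from limma) and 1.57 for males (SE 0.08, adjusted p = 1.94e-06). The gene lies on chromosome 15 (GRCm38.p6, minus strand), and the 250 bases before its start are shown because it changed most of all subunits. The next sequence is the same stretch for Itga4, on chromosome 2, plus strand, the subunit with the deepest fall in males. Both run 5′ to 3′.
Itga5, chr15:103366792-103367041: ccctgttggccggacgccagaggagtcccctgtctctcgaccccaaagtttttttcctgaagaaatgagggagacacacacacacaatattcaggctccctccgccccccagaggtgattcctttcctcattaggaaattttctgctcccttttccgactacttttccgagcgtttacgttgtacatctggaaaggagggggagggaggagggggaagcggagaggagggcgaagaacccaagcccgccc
Itga4, chr2:79255176-79255425: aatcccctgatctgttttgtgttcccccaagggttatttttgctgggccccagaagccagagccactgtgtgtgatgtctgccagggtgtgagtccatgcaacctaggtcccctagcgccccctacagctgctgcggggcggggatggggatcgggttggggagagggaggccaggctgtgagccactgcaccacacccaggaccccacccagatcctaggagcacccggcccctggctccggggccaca

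Neither stretch holds, on either strand, any of the 4 motifs searched: TGANTCA (AP-1), TGACNNNGC (core of the antioxidant response element), CATTCC (TEAD factors) and TGATGNAA (amino acid response element). The first pair share the letters TGA and can overlap. RefSeq's table held 27 promoters of 24 subunits, and their 250 bases before the start had TGANTCA in 1 (6.75 percent of 32851 promoters of all genes), TGACNNNGC in 3 (10.2 percent), CATTCC in 3 (12.6 percent) and TGATGNAA in 0 (3.45 percent). Among the subunits at the adjusted p alone in both sexes, the promoters of Itgb1 and Itgb6 had a match, and their last 100 bases before the start follow with the matches in capitals (Itgb1 on the plus strand, Itgb6 on the minus strand). In Itgb1 the capitals mark TGACNNNGC and then CATTCC on the other strand, and in Itgb6 they mark TGACNNNGC on the other strand. These 2, both higher in hyperoxia, were picked after the search. The other promoter with TGACNNNGC was that of Itga9, which had -0.24 for females (adjusted p = 0.0173 from limma) and -0.16 for males (adjusted p = 0.0989).
Itgb1, chr8:128685554-128685653: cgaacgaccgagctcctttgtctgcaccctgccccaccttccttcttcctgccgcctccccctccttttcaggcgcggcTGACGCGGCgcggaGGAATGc
Itgb6, chr2:60722604-60722703: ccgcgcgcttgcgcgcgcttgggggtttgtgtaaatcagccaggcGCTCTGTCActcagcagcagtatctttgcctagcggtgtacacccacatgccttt

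Itgb1 is the partner of most alpha chains that bind matrix and had the highest signal of all subunits. Its room air arrays read 11.81, 11.94 and 11.96 in females and 11.91, 12.03 and 11.89 in males. Hyperoxia arrays read 12.21, 12.20 and 12.27 in females and 12.32, 12.29 and 12.27 in males. The groups did not overlap, yet the difference was far smaller than that of Itga5, with changes of 0.32 for females (SE 0.06, adjusted p = 0.00381) and 0.35 for males (adjusted p = 0.00211), short of 1.4-fold.

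The other alpha chains that bind RGD ligands went their own ways. Itga8, a receptor for nephronectin in interstitial and smooth muscle cells, fell. Its log2 signal in females was 11.75, 11.88 and 11.95 in room air and 11.21, 11.14 and 11.41 in hyperoxia. Male values were 11.72, 12.05 and 11.94 in room air and 11.38, 11.26 and 11.23 in hyperoxia. No hyperoxia array reached a room air array of its sex, and the changes were -0.60 for females (SE 0.10, adjusted p = 0.00187) and -0.62 for males (adjusted p = 0.00149). Itgav, the alpha chain shared by receptors that bind vitronectin and release active TGF-beta, had 0.23 for females and 0.23 for males (adjusted p = 0.0152 and 0.0147). Itga2b, the platelet chain, had -0.08 and 0.08 and passed in neither sex.

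Beside the fall of Itga8, the mean of 7 fibroblast markers was 10.89 to 11.06 in female room air and 10.74 to 10.96 in female hyperoxia, with 10.80 to 10.87 and 10.70 to 10.85 in males, and 0 of the 7 were called in either sex. The mean of 7 smooth muscle markers was higher in hyperoxia, at 10.53 to 10.78 against 10.10 to 10.47 in females and 10.57 to 10.78 against 9.89 to 10.21 in males. Their part in the changes of Itga8 and Itga5 was not tested. Without the 3 arrays richest in squamous epithelium markers, which leaves 1 female room air array, Itga8 kept a log2 fold change of -0.61 in females but missed the test (adjusted p = 0.0912).

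Among the beta chains that pair with Itgav, the directions differed. Itgb6, an epithelial chain that with Itgav frees TGF-beta from its latent form, had changes of 0.45 (adjusted p = 0.00356) for females and 0.43 (adjusted p = 0.00388) for males. Its arrays in hyperoxia, at 10.54, 10.67 and 10.79 in females and 10.81, 10.90 and 10.89 in males, all lay above room air of the same sex, at 10.20, 10.28 and 10.19 in females and 10.30, 10.58 and 10.41 in males. Itgb5, a widely expressed receptor chain for vitronectin, had -0.31 (adjusted p = 0.00178) for females and -0.36 (adjusted p = 0.000727) for males. Itgb3, the chain of the platelet fibrinogen receptor that endothelial cells also use, had -0.24 for females and -0.23 for males (adjusted p = 0.0356 and 0.0368). Itgb8 had -0.01 and 0.09 and passed in neither sex. Each of the 3 that passed the adjusted p stayed short of 1.4-fold. In hyperoxia and in room air alike Itgb6 read higher in males, by 0.20 and 0.21 on the log2 scale, with unadjusted p = 0.0392 and 0.0295 and adjusted p = 0.945 and 1.00 from limma.

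**Figure D2:**
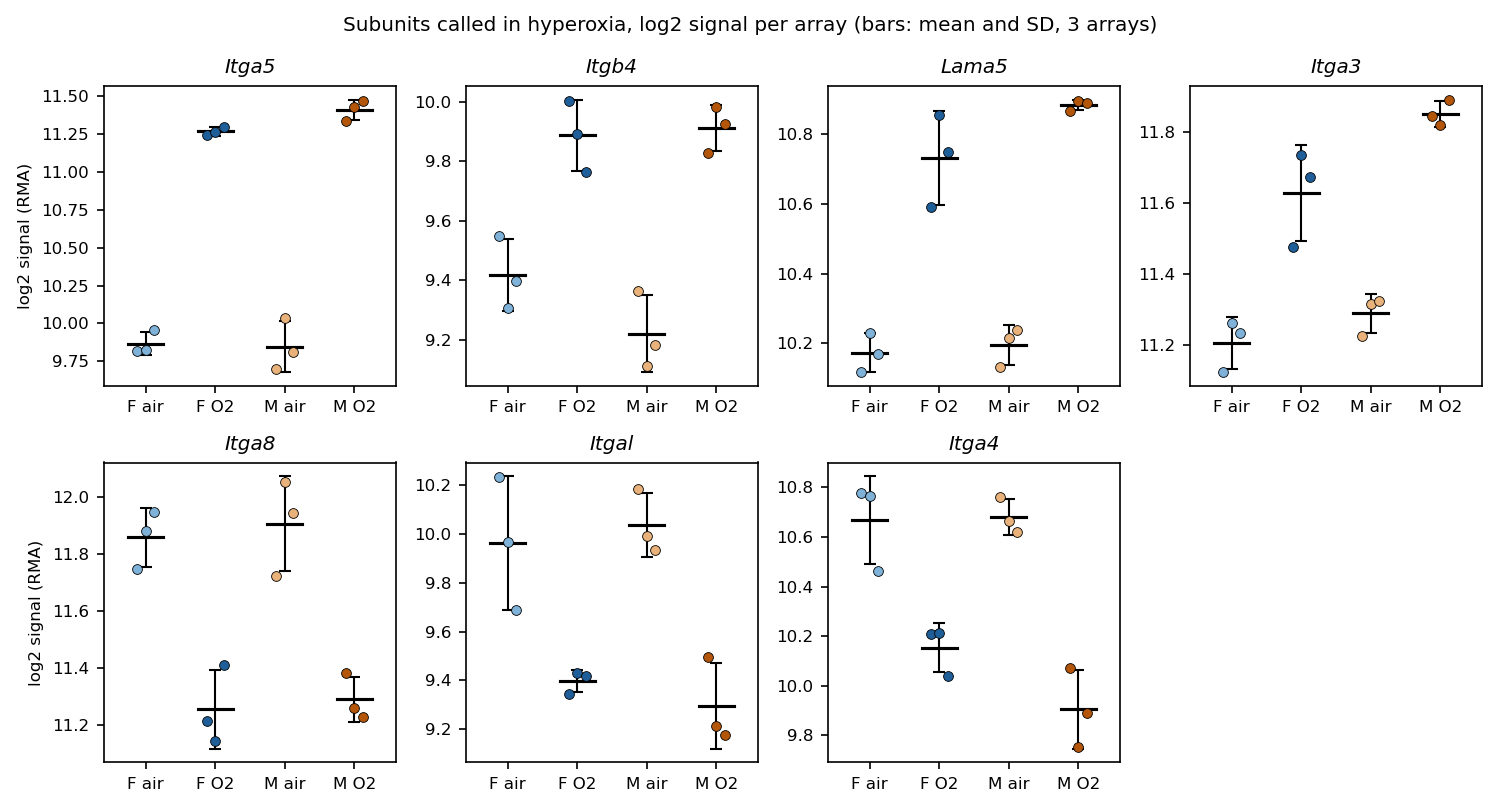
Log2 signal of the 7 called subunits on each of the 12 arrays, in females (F) and males (M) in room air (air) and hyperoxia (O2), with the mean and SD of the 3 arrays. For each gene the room air and hyperoxia points of a sex do not overlap; Itga5, Itgb4, Lama5 and Itga3 move up and Itga8, Itgal and Itga4 move down.

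Receptors for laminin were split as well. Itga3, which with Itgb1 binds the laminins that hold Lama3 or Lama5, read 11.12, 11.26 and 11.23 in female room air against 11.48, 11.74 and 11.67 in female hyperoxia. Male arrays read 11.23, 11.32 and 11.32 against 11.85, 11.82 and 11.89. It rose in males, with a log2 fold change of 0.56 (SE 0.07, adjusted p = 0.000386), while in females 0.42 (adjusted p = 0.00249) fell short of 1.4-fold. The interaction, which is the change in males less that in females, was 0.14 with a 95 percent interval from -0.09 to 0.37. For this gene no difference between the sexes was detected.

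Itgb4, the hemidesmosome chain, had a log2 signal of 9.55, 9.31 and 9.40 in female room air and 10.00, 9.89 and 9.76 in female hyperoxia. In males it had 9.36, 9.11 and 9.18 in room air and 9.83, 9.98 and 9.93 in hyperoxia. All hyperoxia arrays lay above the room air arrays of both sexes. It rose in males, with 0.69 (SE 0.09, adjusted p = 0.000453), and had 0.47 in females (adjusted p = 0.00509), just under the threshold. Without female room air replicate 1 it was called in females too (0.53, adjusted p = 0.00631), and likewise without female hyperoxia replicate 3 (0.53, adjusted p = 0.00703). Its only partner, Itga6, had -0.12 for females and 0.03 for males, with overlapping arrays and adjusted p = 0.493 and 0.935. Itga7, the laminin receptor chain of muscle, had -0.13 and 0.01 and passed in neither sex.

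Squamous epithelium is rich in Itgb4, so its markers were set beside these values. None of the 16 was called in either sex, and their mean spanned 7.82 to 10.02 in female room air, 8.31 to 10.24 in female hyperoxia, 7.57 to 8.84 in male room air and 7.63 to 8.98 in male hyperoxia. The SE of a marker's change ran from 0.09 (Ivl) to 1.63 (Krt4), so for the most variable markers a missing call says little. With this mean as a covariate the log2 fold change of Itgb4 was 0.48 for females and 0.70 for males, and that of Itga3 was 0.42 and 0.55. Female hyperoxia replicate 1, the array highest in these markers, was the lowest of its group in Itga3 and the highest in Itgb4. Without that array Itga3 was called in females (0.50, adjusted p = 0.000972). The part of squamous epithelium in the changes of Itgb4 and Itga3 was not tested.

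Of the collagen receptors, Itga2 and Itga1 went opposite ways. Itga2, a chain of epithelial cells and platelets, had changes of 0.39 (adjusted p = 0.00425) for females and 0.45 (adjusted p = 0.00168) for males. Itga1, found on smooth muscle, capillary endothelium and some lymphocytes, had -0.30 (adjusted p = 0.0191) for females and -0.34 (adjusted p = 0.00855) for males. Room air and hyperoxia arrays were apart for both genes in both sexes. Itga10 and Itga11, chains of cartilage and of fibroblasts, were among the dimmest subunits and had values between -0.25 and -0.10, with no adjusted p under 0.05.

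Itga4 and Itgal, adhesion receptors of leukocytes, fell in both sexes. Itga4 pairs with Itgb1 or Itgb7 and holds lymphocytes, monocytes and eosinophils to VCAM-1 and fibronectin. Its log2 signal in females was 10.78, 10.77 and 10.46 in room air and 10.21, 10.21 and 10.04 in hyperoxia. Male arrays gave 10.76, 10.66 and 10.62 in room air and 10.07, 9.75 and 9.89 in hyperoxia. The log2 fold change was -0.51 for females (SE 0.11, adjusted p = 0.00640) and -0.78 for males (adjusted p = 0.000492). The interaction was -0.26 (95 percent interval -0.59 to 0.07, unadjusted p = 0.109). This was the smallest interaction p of the 37 subunits. In females Itga4 lay close to the threshold, and it fell short of 1.4-fold when an array was left out, either of room air replicates 1 (-0.46) and 2 (-0.47) or hyperoxia replicate 3 (-0.46).

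Itgal, the alpha chain of LFA-1, by which T cells and other leukocytes bind ICAM-1 and ICAM-2, had a log2 signal of 10.24, 9.97 and 9.69 in female room air and 9.34, 9.43 and 9.42 in female hyperoxia. In males its signal was 10.18, 9.99 and 9.93 in room air and 9.50, 9.21 and 9.18 in hyperoxia. The female room air arrays were spread over more than 0.5 log2 units, and even the lowest lay above all hyperoxia arrays. Log2 fold changes were -0.57 for females (SE 0.13, adjusted p = 0.0143) and -0.74 for males (adjusted p = 0.00283). Leaving out female room air replicate 1 ended the call in females (-0.43, adjusted p = 0.0484). Its partner Itgb2, the beta chain shared with Itgam, Itgax and Itgad, had 0.04 and -0.07, with overlapping arrays in both sexes.

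None of the remaining leukocyte chains passed the test, and their differences from Itgal were not tested. Itgam, found on neutrophils, monocytes and macrophages, had -0.01 for females and -0.28 for males (adjusted p = 0.982 and 0.197), with male arrays apart and female arrays overlapping. Itgax, of alveolar macrophages and dendritic cells, had 0.10 and 0.10, Itgad 0.01 and -0.04, and Itgae, of lymphocytes within epithelium and some dendritic cells, 0.10 and -0.02. Itgb7, the other partner of Itga4, had -0.25 for females and -0.29 for males with arrays apart in both sexes, short of the adjusted p (0.180 and 0.107), and Itgb2l had -0.08 and -0.16. Itga9, related to Itga4 and found on lymphatic endothelium and smooth muscle, had -0.24 (adjusted p = 0.0173) for females and -0.16 (adjusted p = 0.0989) for males.

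Marker lists of leukocytes were set beside Itga4 and Itgal. The mean of 8 T cell markers was 8.24 to 8.53 in female room air and 8.08 to 8.27 in female hyperoxia, and 8.23 to 8.30 against 7.92 to 8.14 in males, with 0 called in females and 2 lower in males. Natural killer cell markers, 6 in number, had means of 8.54 to 8.79 against 8.33 to 8.39 in females and 8.27 to 8.64 against 7.99 to 8.29 in males, with 0 called in females and 1 lower in males. For 4 B cell markers the means were 9.73 to 9.99 against 9.27 to 9.68 in females and 9.52 to 9.96 against 9.05 to 9.17 in males, with 0 and 3 lower. Neutrophil markers, 9 in number, had 8.04 to 8.76 against 7.90 to 8.22 in females and 8.34 to 8.91 against 7.73 to 7.83 in males, with 0 and 5 lower. Dendritic cell markers, 6 in number, had 8.93 to 8.99 against 8.68 to 8.70 in females and 8.91 to 8.94 against 8.49 to 8.58 in males, with 1 and 2 lower. Macrophage markers, 7 in number, had 9.74 to 9.87 against 9.94 to 9.97 in females and 9.74 to 9.88 against 9.87 to 9.94 in males, with 3 and 2 higher and 1 lower in each sex. The part of these cells in the changes of Itga4 and Itgal was not tested. Without the 3 arrays richest in squamous epithelium markers, both genes missed the test in females, at -0.64 (adjusted p = 0.0531) and -0.54 (adjusted p = 0.114).

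**Figure D3:**
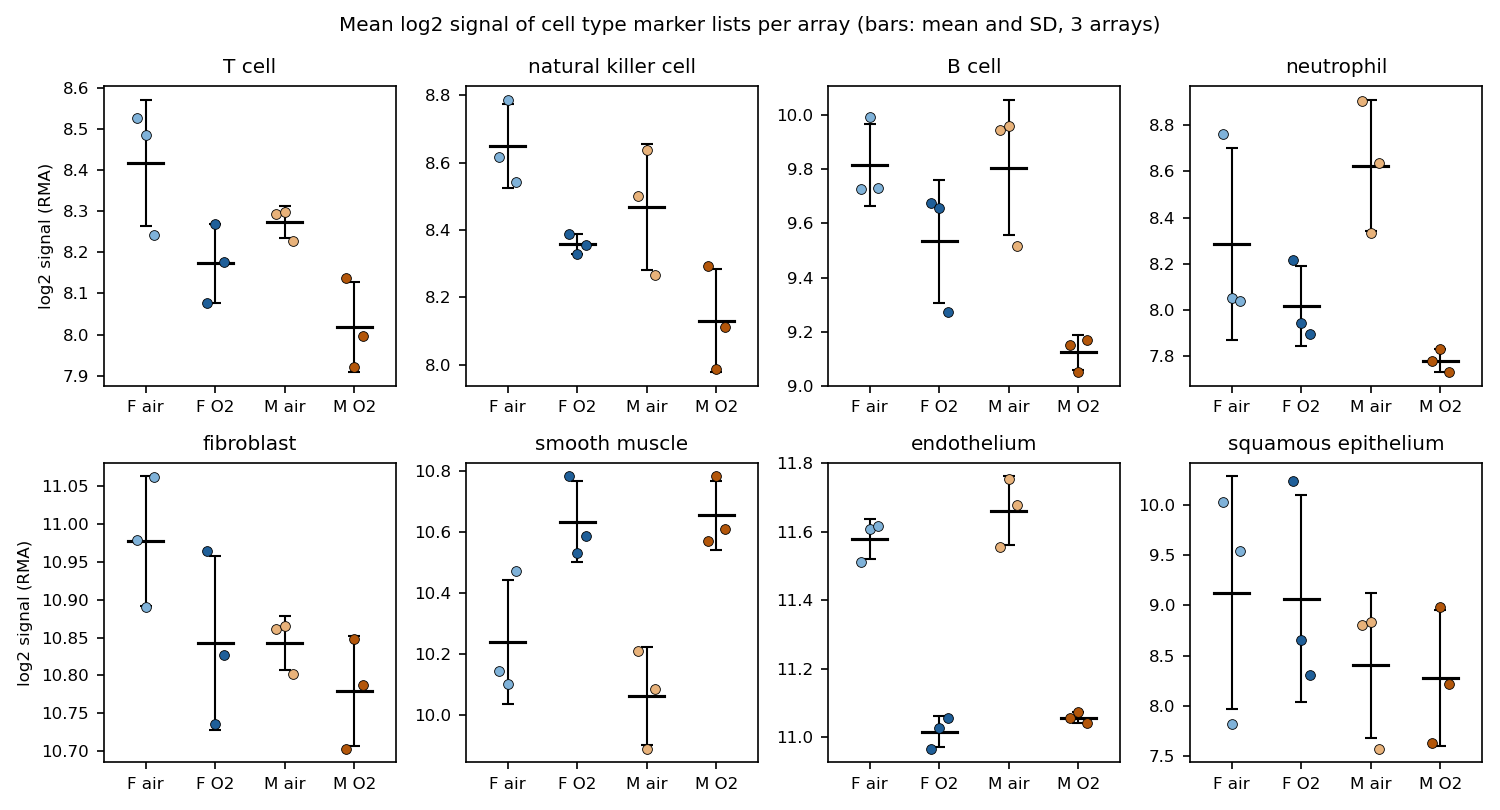
Mean log2 signal of 8 cell type marker lists on each array, in females (F) and males (M) in room air (air) and hyperoxia (O2), with the mean and SD of the 3 arrays. Endothelium and B cell markers lie lower and smooth muscle higher in hyperoxia in both sexes without overlap. Neutrophil and T cell markers are apart in males alone, and natural killer cell markers in females alone. Fibroblast markers overlap in both sexes, and squamous epithelium varies most within groups.

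Laminin alpha chains parted in hyperoxia. Lama5 read 10.12, 10.23 and 10.17 in female room air and 10.59, 10.86 and 10.75 in female hyperoxia. Male arrays read 10.13, 10.21 and 10.24 in room air and 10.87, 10.90 and 10.89 in hyperoxia. All hyperoxia arrays stood above all room air arrays, with changes of 0.56 for females (SE 0.07, adjusted p = 0.000325) and 0.69 for males (adjusted p = 7.71e-05), or 1.47-fold and 1.61-fold. Lama5 kept its call in females without the 3 arrays richest in squamous epithelium markers (0.57, adjusted p = 0.0154). The lowest female hyperoxia value was that of replicate 1, the array highest in those markers.

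Lama4, the laminin alpha chain of endothelium and muscle, moved the other way. Its log2 signal was 10.35, 10.45 and 10.58 in female room air and 10.05, 10.02 and 10.04 in female hyperoxia. Males had 10.39, 10.55 and 10.44 in room air and 10.05, 9.97 and 9.92 in hyperoxia. The changes, -0.43 for females (SE 0.07, adjusted p = 0.00180) and -0.48 for males (adjusted p = 0.000794), stopped just short of 1.4-fold. In males Lama4 crossed that threshold after quantile normalization again and without male room air replicate 1, male room air replicate 3 or male hyperoxia replicate 1.

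Lama3, the alpha chain of the epithelial laminin of hemidesmosomes, had a log2 signal of 10.62, 10.72 and 10.67 in female room air and 10.10, 10.23 and 10.27 in female hyperoxia. In males it had 10.65, 10.78 and 10.68 against 10.33, 10.23 and 10.31. These groups were apart too, at changes of -0.47 for females (SE 0.06, adjusted p = 0.000515) and -0.42 for males (adjusted p = 0.00104), under 1.4-fold. Its partner Lamb3 had -0.10 and -0.00 with overlapping arrays. Itgb4, the receptor chain for this laminin, was higher at the adjusted p in both sexes (0.47 for females and 0.69 for males), past 1.4-fold in males. Lama2, the chain of muscle and nerve, had 0.06 and 0.03, and Lama1, a chain of the embryo, was dim and had -0.20 and -0.20, with no adjusted p under 0.05 for either.

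Endothelial markers, 14 in number, had means of 11.51 to 11.62 in female room air and 10.97 to 11.06 in female hyperoxia, and of 11.55 to 11.75 against 11.04 to 11.07 in males, with 6 called lower and 1 higher in each sex. Alveolar type 2 markers, 7 in number, had means of 12.91 to 12.99 against 12.45 to 12.58 in females and 12.89 to 13.05 against 12.53 to 12.58 in males, with 4 lower in females and 3 in males. Alveolar type 1 markers, also 7, had 12.04 to 12.18 against 11.65 to 11.84 in females and 12.13 to 12.26 against 11.90 to 11.99 in males, with 1 lower and 1 higher in each sex. The part of these cells in the lower signals of Lama4 and Lama3 was not tested.

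Beta and gamma chains complete the trimers. Lamc1, the gamma chain of most laminins, read 10.94, 10.96 and 10.98 in female room air, and 11.30, 11.29 and 11.36 in female hyperoxia. In males the mean was 10.97 ± 0.03 (SD, n = 3) in room air, and the hyperoxia arrays read 11.34, 11.33 and 11.40. Room air and hyperoxia did not overlap in either sex, and the changes were 0.35 for females (SE 0.05, adjusted p = 0.000532) and 0.39 for males (adjusted p = 0.000275), under 1.4-fold. Lamb1, the beta chain found with Lama4 or Lama5 in most tissues, had -0.00 and -0.12 and passed in neither sex. Lamb2, its relative in vessels and at synapses, had -0.21 and -0.19 (adjusted p = 0.0202 and 0.0358), and Lamc3 had 0.21 and 0.24 without passing.

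The sexes were compared directly for each subunit. The limma interaction called 0 of the 37 (0 percent of all genes), with 0 at an unadjusted p under 0.05 (262 of 19938 genes), and the interaction values were at most 0.26 in size. For Itga5 the interaction was 0.16, with a 95 percent interval from -0.10 to 0.42, and for Itgb4, second by p after Itga4, it was 0.22 (-0.07 to 0.51). Itga7 came next with 0.14 (-0.07 to 0.36). Between males and females in room air 0 subunits were called (0.0201 percent of all genes), with 1 at an unadjusted p under 0.05, Itgb6 (451 of 19938 genes). In hyperoxia 0 were called (0.0251 percent), with 7 at an unadjusted p under 0.05: Itga2, Itga2b, Itga3, Itgb6 and Lamb3, which were higher in males, and Itga4 and Itgae, which were lower, each with an adjusted p of 0.945 from limma, beside 653 of 19938 genes. The interval ran from -0.67 to 0.14 for Itgam and from -0.60 to 0.25 for Itgal. With 3 arrays a group, these intervals hold 0 and sizable differences between the sexes alike.

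Several ligands of the integrins changed by more than 2-fold. Of 24 measured, 5 were higher and 3 lower in both sexes, beside 864 and 591 of all 19938 genes. Tnc, tenascin-C of injured and growing tissue, rose with changes of 2.11 for females and 2.17 for males, and Ccn1, a matrix protein that binds several integrins, with 1.93 and 1.67. Thbs1, thrombospondin-1, had 1.65 and 1.43, and Ccn2, connective tissue growth factor, 1.59 and 1.56. Icam1, a counter-receptor of Itgal, rose with 0.54 and 0.57, while Icam2, another one, fell with -0.73 and -0.75. The remaining lower ones were Vtn, vitronectin, with -0.91 and -0.72, and Npnt, nephronectin, the ligand of Itga8, with -0.61 and -0.53. The list's median was -0.04 for females and 0.04 for males.

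Of 27 measured genes for proteins that link integrins to actin, 9 were called higher in females and 9 in males. Over all genes 4.75 and 5.32 percent were. Ptk2, also planned for this list, had no cluster with a single symbol. Of the 27, 17 were called in neither sex. Those higher in both numbered 8, beside 864 of all 19938 genes. None was called lower, but Tln2, a talin that ties integrins to actin, was lower at the adjusted p alone, with -0.40 and -0.34 (adjusted p = 0.000632 and 0.00161), and Apbb1ip, which brings talin to integrins in leukocytes, in males, with -0.28 (adjusted p = 0.0455). Actn1, which crosslinks actin at adhesion sites, had changes of 1.11 for females and 1.16 for males (adjusted p = 1.65e-06 and 1.18e-06). Bcar1, a scaffold phosphorylated when integrins engage, had 0.91 and 0.87, Tgfb1i1, a paxillin relative, 0.88 and 0.87, and Actn4 0.64 and 0.63. The median of the list was 0.11 for females and 0.17 for males, beside -0.02 and -0.00 over all clusters.

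Of 17 partners of laminin in the basement membrane, 1 was higher and 2 lower in both sexes, beside the same 864 and 591 of 19938. By the adjusted p without the fold threshold, 2 were higher and 7 lower in females, with 2 and 4 in males. The median of this list was -0.24 for females and -0.12 for males. Tinagl1, a matrix protein that binds laminins and integrins, rose with changes of 1.53 for females and 1.61 for males, while Frem1, of epithelial basement membranes, and Egflam, a ligand of dystroglycan, fell with -0.69 and -0.64, and with -0.52 and -0.60. Among 9 other laminin receptors and hemidesmosome genes, 1 was lower in females, Sdc2, a cell surface proteoglycan (-0.50, adjusted p = 0.0115), and 0 were called in males, where Sdc2 had -0.46 (adjusted p = 0.0162). Over all genes 3.67 percent were called lower in females and 4.11 percent in males. At the adjusted p alone 6 of these 9 passed in each sex, 3 higher and 3 lower. Of all genes, 12.1 percent were higher and 11.4 percent lower in females by that measure, with 13.3 and 12.1 percent in males.

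**Figure D4:**
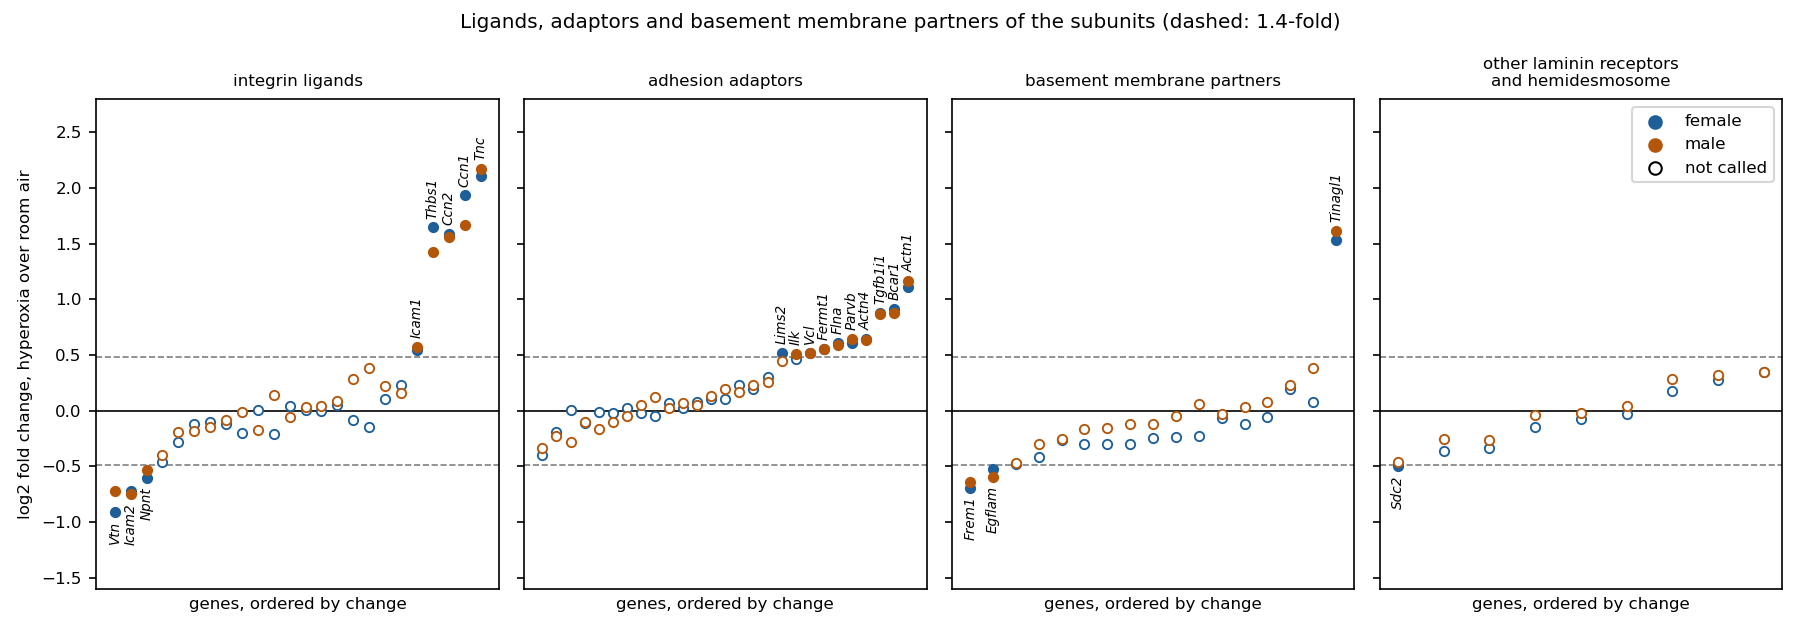
Change in log2 signal from room air to hyperoxia for the genes of 4 lists, ordered by change within a list, with females in blue, males in orange, filled points for called values and dashed lines at 1.4-fold. Tnc, Ccn1, Ccn2 and Thbs1 lead the ligands above 1.4, and all named adaptors lie above the upper line in at least one sex. Tinagl1 is the only basement membrane partner called higher, while Frem1 and Egflam are called lower.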

How the data were processed

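Whole lung RNA of 4 groups was hybridised to 12 Affymetrix arrays (Mouse Gene 1.0 ST), 3 a group, each with a pool of 4 mice. The authors deposited log2 values of 35556 transcript clusters made by Robust Multichip Average (background correction, quantile normalization, median polish), with a version not given in the sources used here. They were used as deposited, with no filter. Quantile normalization removes shifts shared by a whole array, so changes are relative to the other genes. Clusters were named from the platform annotation (21789 with 1 symbol, 1621 with several, 12146 not listed). The highest-mean cluster stood for a gene; Itgad alone had more than 1.

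The 4 group means were fitted in one model over all clusters by limma (version 3.58.1, R 4.3.3) with its moderated variances (eBayes) and Benjamini-Hochberg adjustment within each contrast. The study's thresholds were applied to 5 contrasts. Shares over all genes use 1 cluster per gene with a single symbol (19938 genes). The procedure was tested on simulated data with known changes.

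The members and gene lists were chosen with earlier results of these data known, and carry no test of their own. Values per array are given for called subunits and for some that passed the adjusted p alone; these, and other uncalled subunits given single values beyond partner chains, were picked after their values were seen. From the pathway lists, up to 4 called genes with the largest change are named, and more where 5 or fewer changed one way. Promoters are RefSeq's (GRCm38.p6); 13 subunits had none in the table. Replicates are separate pools by their labels. Precision is limited by having 3 arrays a group. The labels do not say what a replicate number shares, and the model has no block. Deviations from the group means correlated over 0.1 between same-numbered room air and hyperoxia arrays in 3 of 3 female pairs (0.38 to 0.65) and 2 of 3 male pairs (-0.27 to 0.21), so the female numbers were taken as pairs in an alternative chosen after seeing the data. The alternatives were a replicate block, each sex alone, a robust trended fit, other scaling, filter, thresholds and adjustments, the squamous epithelium mean as a covariate, arrays left out, other clusters of a gene, and both sexes averaged. Scan dates were not used here.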

Additional observations from a re-analysis of the deposited data

How the results depend on the processing

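With no fold threshold 19 subunits passed in females and 18 in males, and at 2-fold 1 in each sex, against 5 and 7 called. Without the 3 arrays richest in squamous epithelium markers, which leaves 1 female room air array assumed to vary like the other groups, 2 were called in females and 7 in males. Leaving out each array in turn gave 4 to 7 in females and 7 to 9 in males. In females, without female room air replicate 1 the calls of Itga4 and Itgal were lost and those of Itgb4 and Lama3 gained. Without female hyperoxia replicate 1 Itga3 and Itgb6 were gained (7 called), and in males without male room air replicate 2 Itga2 and Itgb6 (9 called). The cause of these shifts was not tested. With the replicate block over all arrays the counts stayed at 5 and 7. With the block within females alone, where the numbers pair the arrays, 5 were called, with 0 calls lost and 0 gained, and 0 in the interaction. Over all 18 same-numbered pairs, across the sexes too, 6 correlated over 0.1 (range -0.66 to 0.65).

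Quantile normalization again gave 6 in females (Lama3 gained) and 8 in males (Lama4 gained). Centring arrays on the median, which moved the median of all clusters by 0.04 in both sexes, gave 4 higher and 2 lower in females (Itgb4 and Itgb6 gained, Itga4 lost at -0.47) and 5 higher and 3 lower in males (Itga2 gained). Each sex fitted alone lost Itgal in females (adjusted p = 0.0518 from limma). An adjusted p under 0.01 gave 4 and 7, and the sexes averaged gave 7. With the filter on dim clusters, 1 cluster per gene, the robust trended fit, adjustment over all 5 contrasts, other clusters of a gene or the squamous epithelium mean as a covariate, 5 and 7 were called. The filter dropped no subunit, so it could act on them only through the adjustment. Only Itgad had another cluster, so that alternative could alter Itgad alone. No named subunit changed direction in a called value. The interaction and the comparisons between the sexes called 0 subunits under every alternative run for them.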
